A study of Bos taurus and Sus scrofa with 10 samples.

Results

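The genes described here are the solute carriers that reached an appreciable level in cow or pig oocytes and early embryos, other than a few that were set aside. A gene row was taken when its symbol began with SLC, a family number, the letter A and a member number, and when its value was 10 reads per 1000000 reads of the library (RPM) or more in at least 1 stage of its species. The mitochondrial SLC25 family and the 5 genes SLC2A1, SLC2A3, SLC9A3, SLC22A18 and SLC34A2 were left out. The cow table held 265 such carrier symbols, of which 124 met the level, and the pig table held 246, of which 134 did. The remaining 141 cow and 112 pig symbols stayed below it in every stage. The selection holds 169 symbols in either species out of 44712 rows in both tables, and 89 of them were selected in both species, which is 71.8% of the cow genes and 66.4% of the pig genes. The measured level itself chose these genes, so that they are expressed is not a finding, and every value below is a description.

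Solute carriers are membrane proteins that move small molecules across the plasma membrane and the membranes of organelles, either down a gradient or coupled to the movement of sodium, protons or another solute. They are numbered by family, and a family usually shares a kind of substrate, such as amino acids, sugars, zinc or bicarbonate. Early embryos use them to take up energy substrates and amino acids, to hold cell volume and pH, and, in the trophectoderm of the blastocyst, to move ions and water into the cavity. Several work only with a partner chain: the light chains SLC7A5 to SLC7A11 are carried to the surface by the heavy chains SLC3A1 or SLC3A2, and the monocarboxylate carriers by basigin (BSG).

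RNA was measured in cow (Bos taurus) and pig (Sus scrofa) in oocytes, in embryos of 2-4 and of 8-16 cells, and in morulae and blastocysts. A single library of total RNA stood for each of these 5 stages in a species, 10 libraries in all, extracted with a kit for small samples and amplified before sequencing. No treatment, genotype, breed, age or number of pooled oocytes or embryos is given in the sources used here, nor whether embryos were made in vitro. With 1 library per stage no difference has a replicate check and no test was possible. Throughout, 5 values in a row run from the oocyte to the blastocyst, and RPM values compare 1 gene between stages, not genes of different lengths with each other.

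Library totals ran from 3002751 reads (pig morula) to 14182046 reads (cow blastocyst), and a count of 0 allows up to 3 reads, which is 0.212 RPM in the deepest and 0.999 RPM in the shallowest library. Intervals in brackets are 95% binomial ones and cover counting error only, since amplified reads are not independent molecules. Oocyte markers were lower in the blastocyst than in the oocyte for 10 of 10 cow and 8 of 9 pig genes compared, their summed level being 5406 RPM in the oocyte and 0.282 RPM in the blastocyst of cow, and 5279 and 22.5 RPM in pig. Blastocyst markers were higher for 8 of 9 cow and 7 of 8 pig genes. In pig NANOG, which was not compared, and SOX2 had 0 reads in the blastocyst, after 2.66 and 10.3 RPM in the morula. Cow NANOG was highest at 8-16 cells, with 116 RPM against 14.5 RPM in the blastocyst. Mitochondrial reads made up 4.40% of the cow oocyte and 30.2% of the cow blastocyst library, and 6.06% and 18.6% in pig. Summed markers of cumulus and granulosa cells were 277, 232, 72.2, 20.004 and 995 RPM in cow and 15.7, 11.4, 22.7, 16.3 and 1831 RPM in pig, of which PTGS2 alone gave 902 and 1809 RPM in the blastocysts. Of the cow list, HAS2, PTGS2 and FSHR had 141, 91.3 and 37.3 RPM in the oocyte, CYP19A1, FSHR and CYP11A1 had 48.8, 23.8 and 16.6 RPM in the blastocyst, and FOXL2 and AMH had between 0 and 2 reads in each library. In the cow blastocyst HAS2, PTX3 and TNFAIP6 were at 0 reads too. The part of these levels in the results below was not tested.

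The level that defines the selection lies in a continuous range. In cow the genes just inside it were SLC44A4, SLC45A4 and SLC46A1, with highest stages of 10.01, 10.4 and 10.4 RPM, and those just outside were SLC12A1, SLC22A15 and SLC27A4 at 9.74, 9.23 and 8.98 RPM. In pig SLC44A4, SLC52A3 and SLC4A8 lay inside at 10.2, 10.3 and 10.7 RPM, and SLC17A7, SLC38A1 and SLC36A4 lay outside at 9.79, 9.65 and 9.18 RPM.

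A change between 2 stages was taken as the difference of log2(RPM + 1), for genes with at least 1 RPM in one of both, and "rose" and "fell" are used only where that difference reached 2, a factor of 4 in RPM + 1. Beside the count over all carriers at each interval stands the share among all rows that reached 10 RPM in a stage, since that is the same level rule. From the oocyte to the blastocyst 67 of 122 cow genes compared changed, 43 upward and 24 downward (37 and 31 with median scaling), against 46.2% of all such rows. In pig 79 of 131 changed, 42 upward and 37 downward, against 51.5%, and the split was 38 and 42 with median scaling and 38 and 39 with quantile scaling. The upward share of all rows was 24.2% in cow and 29.1% in pig, and the downward share 22.1% and 22.4%. The counts for single substrate groups given later are to be read beside these shares and stand for no difference from them. The median difference was 0.61 over the cow carriers and 0.01 over all cow rows, and 0.46 and 0.32 in pig. Each library pools whole cells, so fewer cells of a type and less RNA per cell cannot be told apart.

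Step by step, the counts ran as follows in the 2 species. Between the oocyte and the 2-4 cell embryo 1 of 108 cow carriers changed, downward, against 0.321% of all rows (0.16% upward and 0.16% downward). It was SLC24A5, a potassium-dependent sodium-calcium exchanger, with 6.49 and then 0.45 RPM. In pig 7 of 114 did, against 5.52% (3.1% upward and 2.42% downward). Of these 4 went up and 3 down, or 6 and 2 when scaled to the reads outside the mitochondrial genome or by medians. Cow carriers changed next between the 2-4 and 8-16 cell embryo, 46 of 117 with 23 in each direction, or 25 and 16 with median scaling, against 32.5% of all rows, 15% upward and 17.5% downward. In the same interval 7 of 119 pig carriers changed, against 5.01%, where 4.67% of rows went up and 0.335% down. All 7 went upward (5 up and 1 down with median scaling, 6 and 1 with quantile scaling). From the 8-16 cell embryo to the morula 24 of 120 cow carriers changed, 19 of them upward and 5 downward, against 13.6% of all rows, 7.63% upward and 6% downward. Over that interval 39 of 127 pig carriers changed, 18 upward and 21 downward, against 27.7%, made up of 14.7% and 13%. The last step, from morula to blastocyst, had 47 of 121 cow carriers changed, 23 up and 24 down, against 25.5% of all rows, 12.4% up and 13.1% down. In pig it had 56 of 131, 31 up and 25 down, against 30.6%, 15.3% in each direction.

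**Figure D1:**
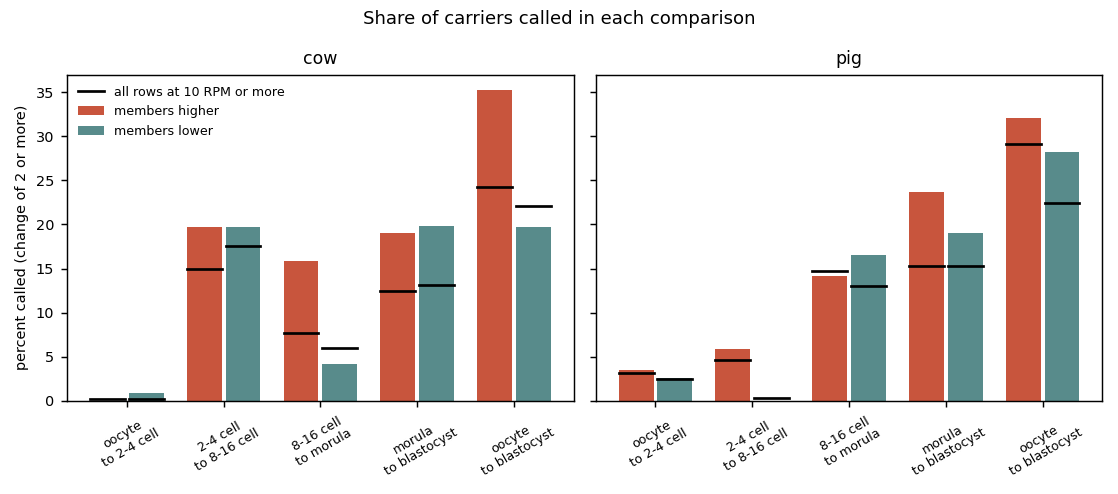
Share of the compared carriers that were higher or lower by at least 2 in log2(RPM + 1), in percent, as separate bars. Each pair of stages in cow and pig is shown, with black lines for all rows at 10 RPM or more. In cow 39.3% of the carriers changed from the 2-4 to the 8-16 cell library and in pig 5.88%.

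The stage with the highest level was most often the blastocyst, for 44 cow carriers (35.5%, against 26.5% of all rows at 10 RPM or more) and 51 pig carriers (38.1% against 34.1%). The morula was highest for 29 cow carriers (23.4%, against 18.3%) and 31 pig carriers (23.1%, against 25.5%). The cow 2-4 cell embryo was highest for 20 carriers or 16.1%, where 27.7% of all rows had their highest value. In pig 31 carriers, 23.1%, had it in the oocyte, against 20.6%. Of the 89 carriers of both species 37 had the same highest stage in both, 21 of them the blastocyst, 7 the oocyte, 6 the morula and 3 the 2-4 cell embryo, a count for which no share over all rows was computed.

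**Figure D2:**
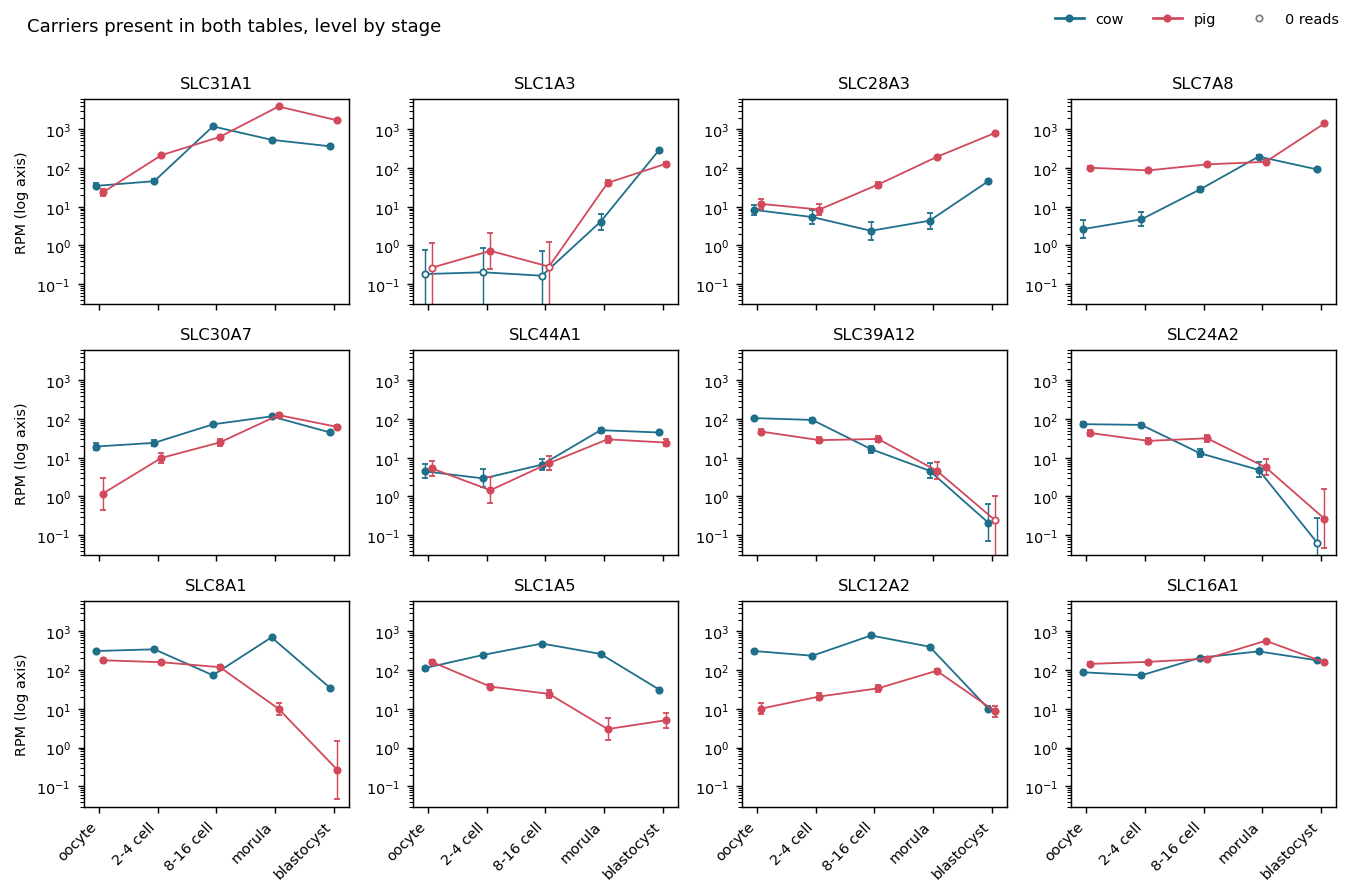
RPM on a log axis by stage for 12 carriers selected in both species, cow and pig as separate lines, with 95% Wilson intervals as bars and open circles where a library had 0 reads. SLC1A3 and SLC28A3 ended high in both species, and SLC39A12 and SLC24A2 ended low. Cow SLC12A2 had its own highest value at 8-16 cells, 782 RPM, and cow SLC8A1 in the morula, 703 RPM.

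Among the amino acid carriers, 5 of 21 cow genes rose from oocyte to blastocyst and 4 fell, and in pig 9 of 29 rose and 9 fell. SLC1A3, a sodium-coupled glutamate and aspartate carrier, had 0 reads in the cow oocyte, 2-4 cell and 8-16 cell libraries, 4.10 RPM in the morula and 293 RPM (284 to 302) in the blastocyst. In pig it had 0 reads, 0.72 RPM from 3 reads, 0 reads, 41.3 and 129.5 RPM. Both species thus had it at or near 0 through the 8-16 cell embryo, and the blastocyst was at least 482-fold above the oocyte in cow and at least 146-fold in pig. Its row lies at 20:37596604-37679976 on the minus strand in the cow build UMD3.1 and at 16:21872993-21968671 on the plus strand in the pig build Sscrofa11.1.

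SLC1A1, the related glutamate carrier of epithelia and neurons, went opposite ways. Cow values were 11.2, 7.66, 39.03, 270 and 571 RPM, a 51.2-fold higher blastocyst (39.3 to 68.0), and pig values were 11.8, 11.6, 11.4 and 22.98 RPM with 0 reads in the blastocyst, at least 14.7-fold below the oocyte, though short of the threshold with a pseudocount of 5 RPM. The 4 earlier pig libraries each held reads of the gene and the blastocyst none. The pig row overlaps SPATA6L on the opposite strand over 26.8% of its span, which had 0.89, 2.17 RPM, 0 reads, 8.66 and 1.07 RPM. SLC1A5, which exchanges glutamine and other neutral amino acids, had 112, 247, 485, 261 and 31.4 RPM in cow and 163, 37.5, 24.3, 2.997 and 5.09 RPM in pig. Its cow level was highest at 8-16 cells and its pig level in the oocyte, from where it fell 31.97-fold (20.3 to 53.5) to the blastocyst.

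The light chains that need SLC3A1 or SLC3A2 did not move together. SLC7A8, a light chain for neutral amino acids, had 2.64, 4.73, 27.98, 197 and 91.7 RPM in cow and 102, 86.7, 124, 144 and 1411 RPM in pig. It rose 34.8-fold (20.3 to 65.5) from oocyte to blastocyst in cow, where the morula was highest, and 13.8-fold (12.4 to 15.5) in pig, where the rise came after the morula. SLC7A5, the large neutral amino acid light chain, was a pig gene here, with 0.30 RPM from 1 read, 0.48, 1.58, 6.33 and 21.4 RPM. Cow SLC7A7, which exchanges cationic for neutral amino acids, fell 4.83-fold from 77.7 to 16.1 RPM (below the threshold when scaled without mitochondrial reads), and SLC7A6, with a like substrate range, fell 6.11-fold from 69.4 to 11.4 RPM. Pig SLC7A7 was at 113 and 89.5 RPM, SLC7A9 at 8.29 and 16.4 RPM and SLC7A11, the cystine-glutamate exchanger, at 63.4 and 25.5 RPM, none past the threshold over the whole interval.

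The heavy chain SLC3A2 had 10.8, 12.6, 4.79, 12.8 and 15.4 RPM in cow, with no change past the threshold in the 5 comparisons. In pig it had 0.59 RPM from 2 reads in the oocyte, 0 reads in the next 3 libraries and 42.9 RPM in the blastocyst. Pig SLC7A8 was thus read at 86.7 to 144 RPM in 4 libraries with at most 2 reads of SLC3A2 each. The other heavy chain, SLC3A1, had 3.45, 3.83, 35.5, 34.9 and 10.8 RPM in cow and 158, 99.3, 59.1, 28.6 and 28.7 RPM in pig. It fell 5.51-fold in pig, but its pig row overlaps PREPL on the opposite strand, which went from 407 to 66.5 RPM. Whether reads were counted by strand is not given in the sources used here, so reads of such pairs cannot be told apart.

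Pig SLC6A8, the creatine carrier, had 0 reads in the oocyte and the 2-4 cell embryo and then 18.003, 377 and 757 RPM, at least 852-fold above the oocyte. That was the largest difference of any pig carrier from oocyte to blastocyst, 9.22 on the log2(RPM + 1) scale. Its row, X:124444283-124454026, overlaps the row of BCAP31 on the opposite strand over 7.04% of its span, and BCAP31 had 0.59, 2.66, 5.05, 14.7 and 113 RPM. Other carriers of the same family fell in pig. SLC6A5, a glycine carrier, had 130, 289, 371, 48.3 and 1.34 RPM, and SLC6A20, a proline and imino acid carrier, had 617, 517, 563, 69.3 and 15.8 RPM. SLC6A6 (taurine) went from 46.2 RPM and SLC6A11 (GABA) from 49.1 RPM to 0 reads. All 4 were high through 8-16 cells or, for SLC6A6, in the oocyte, and low in the blastocyst. Cow SLC6A5 stayed between 7.36 and 18.02 RPM, and cow SLC6A20 had 64.5, 89.0, 14.9, 17.95 and 158 RPM.

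Of the cationic amino acid carriers, SLC7A2 and SLC7A3 fell in cow. SLC7A2 had 65.3, 88.3, 93.0 and 10.3 RPM and 0 reads in the blastocyst, and SLC7A3 had 34.7, 41.9, 3.68 RPM and then 0 reads in the morula and blastocyst. SLC7A2 was lower from the morula on, and SLC7A3 already at 8-16 cells. Pig SLC7A3 was at 30.8, 18.6, 23.7, 12.3 and 64.3 RPM and was highest in the blastocyst. Cow SLC38A2, a sodium-coupled carrier of small neutral amino acids, had 2.64 RPM, 0 reads, 10.9, 46.4 and 76.2 RPM, a 28.9-fold rise over the whole interval. Pig SLC43A2, a carrier of large neutral amino acids, was between 0.67 and 3.85 RPM in 4 libraries and 74.0 RPM in the blastocyst.

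The sugar carriers and their sodium-coupled relatives rose in 5 of 9 cow genes with none falling, and in pig 4 of 10 rose and 4 fell. The genes differed between the species. Cow SLC2A9, a urate carrier of the glucose transporter family, had 1.83, 2.03, 1.84, 14.4 and 337 RPM (328 to 347 in the blastocyst), a 185-fold rise (97.2 to 404). Pig SLC2A2, the low-affinity glucose carrier known from liver and pancreatic islets, had 0 reads in the oocyte and 2-4 cell embryo and then 1.58, 23.98 and 170 RPM, at least 191-fold above the oocyte. Both had their highest value in the blastocyst. Cow SLC2A9 was first above 2.03 RPM in the morula, and pig SLC2A2 was first read at 8-16 cells. The pig SLC2A2 row overlaps an unnamed row on the opposite strand over 8.63% of its span. That row had 0 reads in the oocyte and 2-4 cell embryo and then 0.32, 2.66 and 17.7 RPM.

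SLC2A13, a proton-coupled myo-inositol carrier, had 3.04, 2.93, 5.34, 58.99 and 98.3 RPM in cow and 34.9, 35.3, 23.7, 40.6 and 102 RPM in pig. It rose 32.3-fold in cow, and its pig ratio of 2.92 was below the threshold. Pig SLC2A12 had 118, 105, 67.3, 54.6 and 7.24 RPM and fell 16.2-fold (10.99 to 25.0). Its row overlaps TBPL1 on the opposite strand over 3.23% of its span, which went from 192 to 48.5 RPM. Pig SLC5A7, the choline carrier of cholinergic neurons, had 0 reads in 4 libraries and 83.7 RPM in the blastocyst. Cow SLC5A11, a sodium-coupled inositol carrier, had 0 reads in the first 3 libraries, 2.31 RPM in the morula and 39.3 RPM in the blastocyst. SLC5A1, the intestinal sodium-glucose carrier, had 24.9, 32.9, 7.73, 0.51 and 6.06 RPM in cow, and 0 reads, 2.42, 8.21, 10.3 and 13.1 RPM in pig. Cow SLC5A1 was thus highest in the first 2 libraries and pig SLC5A1 in the last 2. Pig SLC37A2, a sugar-phosphate exchanger, had 16.6, 14.98, 11.4 and 2.997 RPM and 0 reads in the blastocyst.

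Of the carriers of monocarboxylates and dicarboxylates, 5 of 8 rose in cow and 2 of 5 in pig, and none fell. SLC16A1, the lactate and pyruvate carrier MCT1, had 87.8, 73.2, 209, 304 and 178 RPM in cow and 144, 163, 197, 573 and 159 RPM in pig. None of the 5 comparisons passed the threshold in either species, and the morula was the highest library in both. SLC16A4, an orphan monocarboxylate carrier, was nearly unread in the first 2 cow libraries, at 0.20 and 0.45 RPM from 1 and 2 reads, and then had 47.7, 76.9 and 16.0 RPM. SLC13A4, a sulfate carrier, rose in both species. Its cow oocyte had 0.20 RPM (1 read) and its cow blastocyst 26.7 RPM, against 2.07 and 14.5 RPM in pig, where median or quantile scaling ended the call. Pig SLC13A5, a citrate carrier, had at most 1 read in each of the first 3 libraries and then 12.99 and 14.5 RPM.

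Cow SLC16A7, a lactate and pyruvate carrier of higher affinity, had 3.65, 4.96, 0.92, 4.62 and 33.5 RPM and rose 9.17-fold. Pig SLC16A6 and SLC16A9 were seen between 2-4 cells and the morula: SLC16A6 had 0.30, 3.62, 23.4 and 24.6 RPM and 0 reads, and SLC16A9 had 1.18, 2.90, 12.95 and 9.32 RPM and 0 reads.

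**Figure D3:**
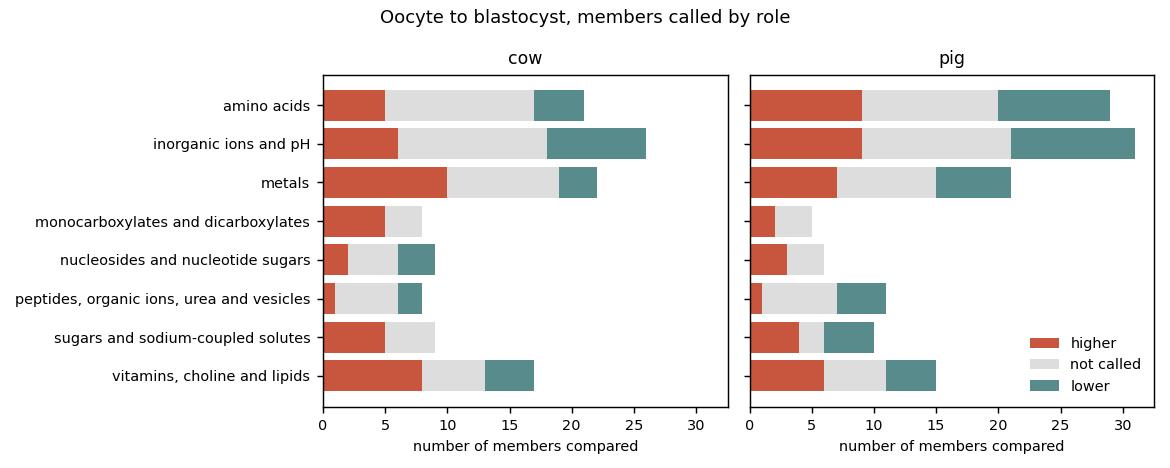
Number of carriers that were higher, lower or below the threshold from oocyte to blastocyst in each substrate group, by species. In cow no sugar or monocarboxylate carrier fell, and in pig the sugar group held 4 in each direction.

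The carriers of inorganic ions and pH were divided, with 6 of 26 rising and 8 falling in cow and 9 of 31 rising and 10 falling in pig. SLC12A2, the sodium-potassium-chloride cotransporter that loads cells with chloride, had 312, 235, 782, 402 and 10.2 RPM in cow and 10.1, 20.8, 33.8, 95.9 and 8.58 RPM in pig. The blastocyst was 39.6-fold below the morula in cow (33.3 to 47.2) and 11.2-fold in pig (7.74 to 16.7). From oocyte to blastocyst the species differed. Cow SLC12A2 fell, by -4.81 on the log2(RPM + 1) scale. The pig gene was at a like level in both, with 34 and 32 reads. SLC12A5, the potassium-chloride exporter of neurons, had 215, 280, 68.5 and 8.98 RPM in cow and 0 reads in the blastocyst, at least 1017-fold below the oocyte. Pig SLC12A5, at 20.1, 2.90, 5.37, 3.66 and 4.29 RPM, lies wholly within the row of TP53RK on the other strand, which went from 6621 to 142 RPM. Pig SLC12A3, the thiazide-sensitive cotransporter, had 0.89, 1.21, 1.58, 5.99 and 119 RPM, and SLC12A1, its loop-diuretic-sensitive relative, had at most 2 reads in each of the first 3 libraries and then 2.66 and 29.8 RPM. The pig blastocyst was thus low in SLC12A2 and high in SLC12A1 and SLC12A3 among the stages.

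Of the sodium-calcium exchangers SLC8A1 and SLC24A2 fell in both species. SLC8A1 had 311, 344, 73.6, 703 and 34.5 RPM in cow and 179, 160, 119 and 9.99 RPM with 0.27 RPM from 1 read in pig. Its cow level went down, up and down again, with the morula 9.55-fold above the 8-16 cell embryo (8.59 to 10.6), while its pig level went down after 8-16 cells. SLC24A2, which also moves potassium, had 73.8, 70.5, 13.1, 4.87 RPM and 0 reads in cow and 43.8, 27.3, 31.9, 5.66 and 0.27 RPM in pig. Its relative SLC24A3 rose in cow, with 0.41, 0.23, 1.10, 31.3 and 35.5 RPM.

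SLC9A9, an endosomal sodium-proton exchanger, had 19.5, 18.02, 2.58, 21.3 and 153 RPM in cow and 11.5, 10.4, 17.7, 8.99 and 0.80 RPM, the last from 3 reads, in pig. The cow value was highest in the blastocyst and the pig value lowest there, and the pig fall of SLC9A9 did not pass with a pseudocount of 5 RPM. SLC9A8, a Golgi exchanger, rose in both: oocyte and blastocyst had 2.43 and 15.8 RPM in cow, and 3.85 and 54.2 RPM in pig. The cow difference was 2.29 on the log2(RPM + 1) scale, and whether it holds with median scaling is not given here.

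SLC26A4, the chloride, iodide and bicarbonate exchanger pendrin, had 20.3, 10.6, 173, 370 and 59.2 RPM in cow and 107, 74.2, 80.2, 35.97 and 123 RPM in pig. Cow pendrin was highest in the morula, where pig pendrin was lowest. SLC26A2, a sulfate carrier, had 3.65, 6.76, 39.03, 8.21 and 5.08 RPM in cow and 0.30, 0.72, 3.79, 12.7 and 115 RPM in pig. It passed through a high 8-16 cell value in cow and rose to the blastocyst in pig. The phosphate carrier SLC20A1 had 95.7, 140, 87.4, 139 and 114 RPM in cow and 67.8, 78.3, 116, 132 and 228 RPM in pig, and SLC4A7, a sodium-bicarbonate cotransporter, had 133, 106, 170, 212 and 133 RPM in cow and 17.5, 15.9, 6.63, 6.66 and 5.90 RPM in pig, neither past the threshold anywhere.

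Among the metal carriers 10 of 22 rose and 3 fell in cow, and 7 of 21 rose and 6 fell in pig. SLC31A1, the high-affinity copper importer CTR1, had 34.5, 45.7, 1188, 535 and 363 RPM in cow and 23.4, 213, 638, 3874 and 1699 RPM in pig. The cow level went up 25.98-fold (22.6 to 30.03) between the 2-4 and 8-16 cell libraries and then down to the blastocyst. The pig level was 9.12-fold up (7.24 to 11.6) already at 2-4 cells and highest in the morula. Its cow row is 8:104172062-104206275 and its pig row 1:253868332-253896414, both on the plus strand. The pig row overlaps CDC26 on the opposite strand over 9.69% of its span, and CDC26 had 16.0, 55.1, 312, 2260 and 777 RPM. The low-affinity copper gene next to it in pig, SLC31A2, had 97.7, 38.2, 30.01, 3.66 and 38.9 RPM and was lowest where SLC31A1 was highest.

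Zinc carriers of the SLC39 family bring zinc into the cytosol, and those of the SLC30 family move it out or into vesicles. SLC39A12 fell in both species, with 106, 94.8, 16.8, 4.62 and 0.21 RPM in cow, the last from 3 reads, and 47.7, 28.5, 30.6 and 4.66 RPM and 0 reads in pig. SLC39A4, the intestinal zinc importer, had 0 or 1 read in each of the first 3 cow libraries and then 1.03 and 19.04 RPM, and 0 reads in 4 pig libraries and 11.3 RPM in the blastocyst. SLC39A11 and SLC39A7 also rose in both, to 23.8 and 12.48 RPM in the cow blastocyst and 62.2 and 27.1 RPM in the pig blastocyst. SLC39A8, which takes up zinc, manganese and cadmium, went opposite ways, with 1.62, 0.68, 13.6, 50.3 and 31.7 RPM in cow and 24.9, 21.7, 20.2 and 2.66 RPM and 0 reads in pig. SLC39A10 had 155, 124, 399, 227 and 40.97 RPM in cow, and fell 4.20-fold (3.64 to 4.86) over 272, 325, 288, 163 and 64.9 RPM in pig.

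SLC30A1, the zinc exporter of the plasma membrane, had 48.7, 43.7, 18.96, 7.44 and 3.46 RPM in cow and 123, 80.9, 91.3, 464 and 30.8 RPM in pig. Its level fell through the cow stages, while in pig the morula stood above all others. SLC30A4, a vesicular zinc carrier, fell in both, 6.20-fold to 4.09 RPM in cow and 15.6-fold to 14.7 RPM in pig. SLC30A7, which loads zinc into the Golgi, had 19.5, 24.3, 72.9, 117 and 44.99 RPM in cow and 1.18, 9.91, 25.0, 127 and 62.7 RPM in pig. Both species had their highest SLC30A7 level in the morula, and pig rose 52.98-fold (20.4 to 196) to the blastocyst. Cow SLC30A6, another Golgi zinc carrier, had 2.84, 1.80, 38.5, 65.4 and 26.7 RPM. Cow SLC11A2, which imports iron, was at 5.52 to 16.2 RPM up to the morula and at 110 RPM in the blastocyst. The iron exporter SLC40A1 had 22.7, 23.9, 15.3, 4.10 and 5.92 RPM in cow and 7.402, 8.22, 10.4, 15.3 and 26.01 RPM in pig, without a change past the threshold.

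Nucleoside carriers and nucleotide-sugar carriers rose in 2 of 9 cow genes and fell in 3, and rose in 3 of 6 pig genes with none falling. SLC28A3, which concentrates purine and pyrimidine nucleosides, had 8.32, 5.41, 2.39, 4.36 and 45.6 RPM in cow and 11.8, 8.46, 37.3, 193 and 810 RPM in pig. The rise was 5.49-fold (4.00 to 7.72) in cow, lay after the morula and did not pass with median scaling, and it was 68.4-fold (50.1 to 95.9) in pig and spread over 3 steps. SLC29A1, the equilibrative nucleoside carrier, had 9.13, 20.1, 4.42, 4.62 and 47.6 RPM in cow and 8.59, 1.45, 8.21, 1.33 and 94.9 RPM in pig, highest in both blastocysts. SLC28A2, for purine nucleosides, was highest in the morula of both species, at 22.8 RPM in cow and 13.99 RPM in pig, after 0 reads in the oocyte and 2-4 cell embryo of each. Cow SLC28A1 had 14.2, 9.69, 0.74, 0.26 and 3.67 RPM, and cow SLC29A4, a monoamine and adenosine carrier, had 6.90, 11.9 and 2.21 RPM and then 0 reads.

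The Golgi carriers of the SLC35A family differed among themselves. In cow SLC35A1, for CMP-sialic acid, fell 6.503-fold between 88.0 RPM in the oocyte and 13.5 RPM in the blastocyst, and SLC35A5 fell between 56.4 and 13.1 RPM. Pig SLC35A1 had 93.0, 27.8, 27.2, 32.97 and 23.1 RPM, a 4.03-fold ratio that was just short of the threshold on the log2(RPM + 1) scale. Its row overlaps RARS2 on the opposite strand over 6.37% of its span, which went from 170 to 57.6 RPM. Pig SLC35A4 had 0.89, 1.93, 1.58, 3.33 and 29.8 RPM, and SRA1, which overlaps 56.3% of its span on the opposite strand, had 0.89, 2.17, 3.16, 7.66 and 33.2 RPM.

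Of the carriers of peptides, organic ions and vesicle contents, 1 of 11 rose and 4 fell in pig, and 1 of 8 rose and 2 fell in cow. The SLC17 genes SLC17A1 and SLC17A3, which carry urate and other organic anions, lie next to each other and fell in both species. SLC17A1 had 46.7, 30.9, 20.6, 20.8 and 1.34 RPM in cow and 113, 91.1, 79.9, 8.66 and 2.14 RPM in pig. SLC17A3 had 11.97, 14.4 and 2.02 RPM and then 0 reads in cow, and 115, 124, 89.4, 16.3 and 2.68 RPM in pig. The cow fall of SLC17A3 did not pass with a pseudocount of 5 RPM. Both genes were low from the morula on in pig, and in cow SLC17A1 lasted longer than SLC17A3. SLC18A2, the vesicular monoamine carrier, had 44.7, 61.4, 29.4, 50.3 and 1.61 RPM in pig and 12.2, 9.46, 21.0, 11.5 and 3.67 RPM in cow. SLC15A1, the proton-coupled peptide carrier of the intestine, was highest in the cow blastocyst, at 29.3 RPM after 3.08 to 6.49 RPM, and in the pig morula, at 68.6 RPM among 4.83 to 15.4 RPM. Pig SLC15A5 had 0 reads in the oocyte and 35.6 RPM in the morula, and cow SLC17A6, a vesicular glutamate carrier, was seen mainly at 8-16 cells, with 28.3 RPM against at most 3.04 RPM in the others.

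Of the carriers of vitamins, choline and lipids, 8 of 17 rose and 4 fell in cow, and 6 of 15 rose and 4 fell in pig. SLC33A1, which brings acetyl-CoA into the endoplasmic reticulum, had 1.22, 0.68, 146, 106 and 46.5 RPM in cow. It had the largest rise of any cow carrier between the 2-4 and 8-16 cell embryo, 6.45 on the log2(RPM + 1) scale. Pig SLC33A1 had 10.95, 2.90, 5.37, 28.97 and 18.8 RPM. SLC19A3, a thiamine carrier, rose in both species, with 1.62, 0.90, 14.9, 28.5 and 13.6 RPM in cow, and 0 reads in the first 3 libraries, 2.997 and 112 RPM in pig. The other thiamine carrier, SLC19A2, fell in cow through 161, 138, 19.9, 15.4 and 13.7 RPM and had 39.1, 22.2, 13.9, 25.3 and 25.5 RPM in pig. The cow oocyte and blastocyst thus differed in opposite ways for the 2 thiamine carriers.

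SLC44A1, a choline carrier, rose in both species, with 4.46, 2.93, 6.63, 51.5 and 44.99 RPM in cow and 5.33, 1.45, 7.26, 29.97 and 24.7 RPM in pig. The pig rise of SLC44A1 lies close to the threshold, and whether it holds with median scaling is not given here. Its relative SLC44A5 fell in both, with 37.1 and 3.53 RPM in the cow oocyte and blastocyst and 27.5 and 0.54 RPM (2 reads) in those of pig. Cow SLC44A2 was between 2.02 and 14.4 RPM up to the morula and at 192 RPM in the blastocyst, 19.7-fold above the oocyte (14.8 to 26.7). Pig SLC46A2 and SLC46A3, of the folate carrier family, went opposite ways: SLC46A2 had 101, 75.1, 73.3, 4.00 and 0.54 RPM, and SLC46A3 had 8.29, 5.07, 0.95, 18.6 and 171 RPM. SLC27A1, a fatty acid carrier, had 0.81 RPM in the cow oocyte and 27.6 RPM in the blastocyst, and 0.30 RPM (1 read) and 27.3 RPM in pig, a rise in each. Cow SLC10A4, an orphan of the bile acid carrier family, had 20.3, 20.9, 2.58 and 8.21 RPM and 0 reads.

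SLC10A1, a bile acid carrier known from liver, had 0 reads in the first 2 cow libraries and then 13.99, 46.4 and 34.9 RPM. Its pig values of 49.1, 56.1, 107, 126 and 113 RPM lie over rows of SRSF5 and SUSD6 on the opposite strand, and SRSF5 had 4.14, 14.5, 81.5, 116 and 98.9 RPM. Of all selected rows, 8 in cow and 44 in pig overlapped another row, in each case on the opposite strand and none on the same one. The overlapping row is named here for some of these genes only.

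Some rows carry a carrier-like symbol but encode other proteins. SLC9A3R1 encodes the scaffold NHERF1, which anchors ezrin and membrane proteins under microvilli. It had 24.5, 23.9, 6.995, 3.33 and 738 RPM in cow and 5.92, 4.83, 18.003, 79.6 and 388 RPM in pig, and rose 30.1-fold (25.1 to 36.3) and 65.5-fold (42.2 to 108) from oocyte to blastocyst. Cow had its lowest value in the morula, and pig was already up there. The pig row overlaps NAT9 on the opposite strand, which had 5.92, 3.62, 12.9, 73.3 and 353 RPM. SLC7A6OS, named for lying opposite SLC7A6, had 8.72, 11.3, 37.4, 20.8 and 7.69 RPM in cow and 62.2, 32.6, 36.01, 77.9 and 58.2 RPM in pig, and pig SLC4A1AP, which encodes the adaptor kanadaptin, had 27.8, 20.1, 34.1, 36.3 and 10.7 RPM.

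Of the 89 genes selected in both species 29 changed from oocyte to blastocyst in both, 25 of them in the same direction, 18 up and 7 down. Among all symbols at 10 RPM or more in both species, 87.9% of those changed in both went the same way. Both higher were SLC1A3, SLC7A4, SLC7A8, SLC9A3R1, SLC9A8, SLC13A4, SLC19A3, SLC26A7, SLC27A1, SLC28A3, SLC29A1, SLC30A2, SLC31A1, SLC37A1, SLC39A4, SLC39A7, SLC39A11 and SLC44A1. Both lower were SLC8A1, SLC17A1, SLC17A3, SLC24A2, SLC30A4, SLC39A12 and SLC44A5. The 4 that went opposite ways included SLC1A1, SLC9A9 and SLC39A8, each higher in the cow and lower in the pig blastocyst than in its oocyte.

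**Figure D4:**
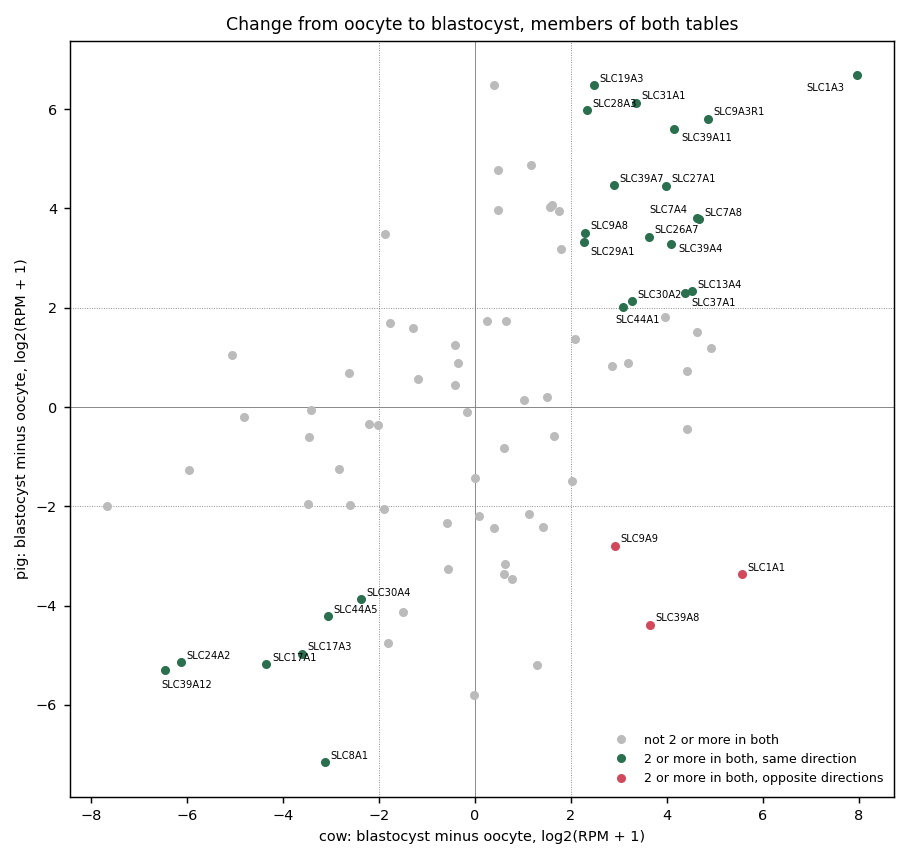
Difference from oocyte to blastocyst on the log2(RPM + 1) scale in cow (x axis) against pig (y axis) for 86 of the carriers selected in both species, each point 1 gene, with lines at 2 and -2. SLC1A1 lies at 5.56 and -3.37, SLC39A8 at 3.64 and -4.38 and SLC9A9 at 2.91 and -2.80.

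At single steps fewer genes changed in both species. None did from the oocyte to the 2-4 cell embryo, and SLC8A2 alone did at the next step, in opposite directions, where 95 of 109 symbols changed in both (87.2%) had the same sign. From 8-16 cells to the morula 5 did: SLC1A3 rose in both, and SLC7A2, SLC8A1, SLC10A7 and SLC24A4 went opposite ways, while 189 of 257 symbols (73.5%) had the same sign there. From the morula to the blastocyst 17 did, 13 in the same direction, and SLC6A20, SLC9A9, SLC15A1 and SLC24A4 in opposite ones, where 88.7% of all symbols changed in both agree in sign.

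**Figure D5:**
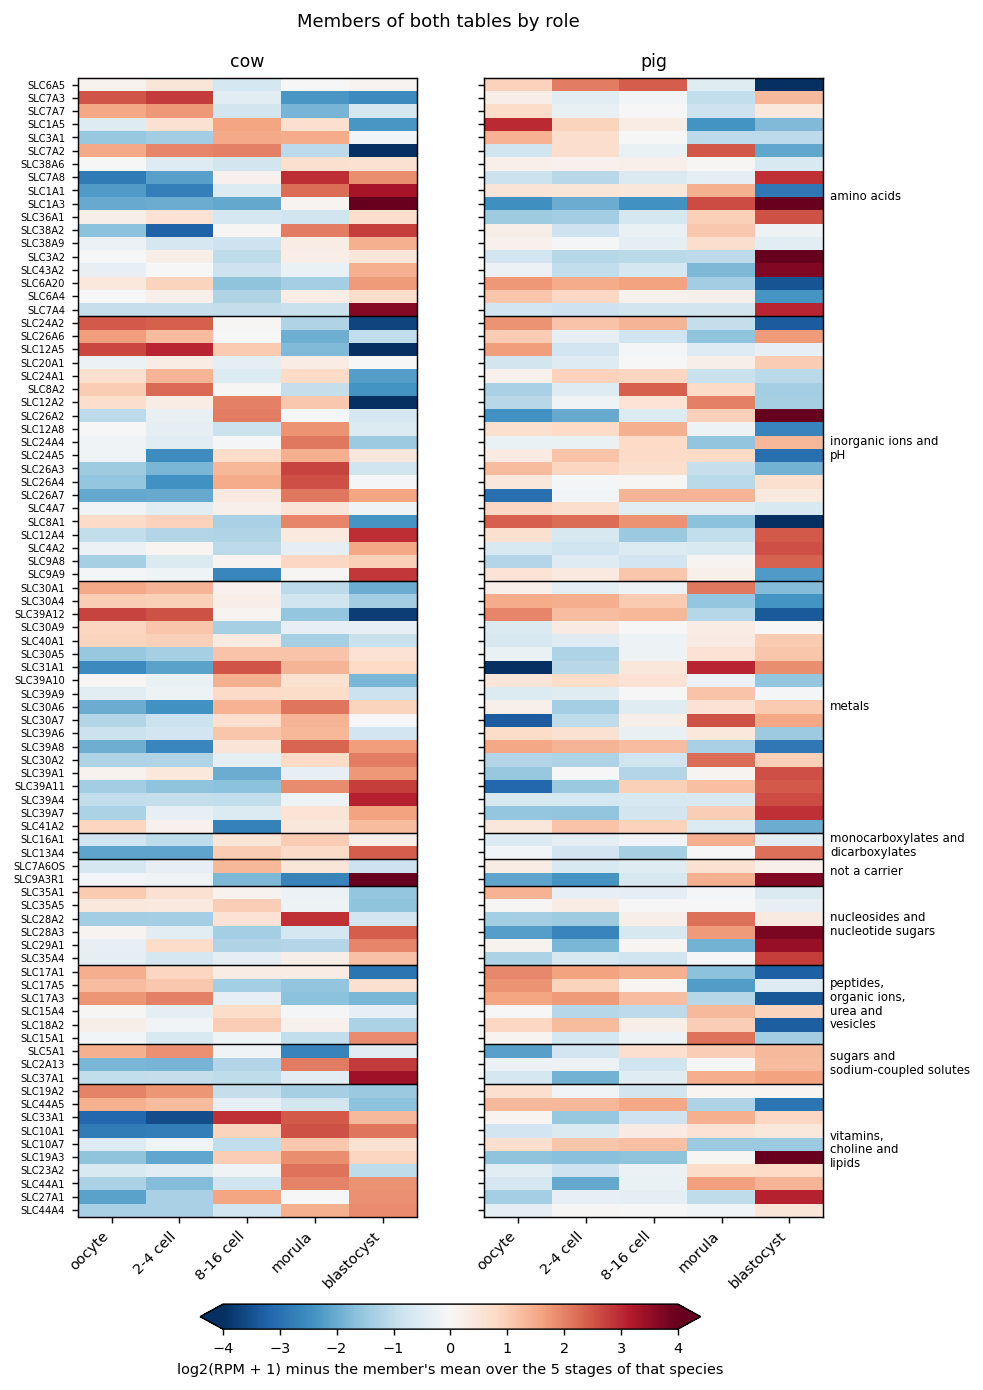
Level of 86 of the 89 carriers of both species by stage, grouped by substrate, as log2(RPM + 1) minus the gene's mean over the 5 stages of its species. Of all cow carriers compared, 46 of 117 changed from the 2-4 to the 8-16 cell library and 47 of 121 from the morula to the blastocyst. The shares of all rows were 32.5% and 25.5%. In pig 39 of 127 changed from the 8-16 cell library to the morula and 56 of 131 from there to the blastocyst, against 27.7% and 30.6%.

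A passing high level, with the 8-16 cell embryo or the morula at least 2 above both the oocyte and the blastocyst on the log2(RPM + 1) scale, was found for 13 of 124 cow carriers (10.5%, against 7.55% of all rows at 10 RPM or more) and 8 of 134 pig carriers (5.97%, against 5.24%). The cow genes were SLC1A5, SLC5A6, SLC6A16, SLC16A4, SLC17A6, SLC23A2, SLC24A4, SLC26A2, SLC26A3, SLC26A4, SLC28A2, SLC38A1 and SLC39A6. SLC23A2, an ascorbate carrier, had 11.97, 13.7, 16.8, 86.7 and 8.67 RPM, and SLC38A1, a glutamine carrier, had 0 reads, 0 reads, 20.8 and 8.21 RPM and 0 reads. SLC5A6, which carries biotin and pantothenate, had 6.09, 5.41, 26.5, 28.7 and 5.01 RPM, and SLC39A6, a zinc importer, had 23.9, 25.5, 97.2, 112 and 25.5 RPM. None of these 4 differed past the threshold between the oocyte and the blastocyst. In pig the genes were SLC7A2, SLC8A2, SLC9A5, SLC12A2, SLC15A1, SLC16A6, SLC16A9 and SLC17A8. Pig SLC17A8, a vesicular glutamate carrier, had 0 reads, 0.24, 7.90, 21.0 and 2.41 RPM, and SLC8A2 had 0.30, 1.21, 15.5 and 4.33 RPM and 0 reads.

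In contrast, 28 cow and 34 pig genes changed past the threshold in none of the comparisons, with no share over all rows computed for this. The genes in both of these lists included SLC16A1 (lactate), SLC20A1 (phosphate), SLC4A7 (bicarbonate), SLC38A6 and SLC38A9 (amino acids, SLC38A9 at the lysosome), SLC39A9 (zinc) and SLC40A1 (iron). SLC38A9 had 40.6, 29.7, 26.7, 58.7 and 129 RPM in cow and 36.7, 30.9, 25.3, 53.6 and 24.1 RPM in pig.

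Partners and regulators of carriers were read from a separate list. Basigin, the chain that carries SLC16A1 to the surface, had 9.74, 19.6, 8.28, 62.8 and 177 RPM in cow and 5.33, 2.42, 2.84, 29.3 and 114 RPM in pig under its symbol BSG. BSG thus rose in both species while SLC16A1 did not pass the threshold. Of the list 7 of 21 genes rose and 4 fell in cow, and 6 of 17 rose and 2 fell in pig, beside 24.2% of all rows up and 22.1% down in cow and 29.1% and 22.4% in pig. The partners described here are only a part of those that changed. SGK1, a kinase that raises the surface amount of several carriers, had 0 reads, 0.68, 410, 474 and 73.3 RPM in cow and 0 reads, 7.25, 31.6, 101 and 74.5 RPM in pig. NFAT5, the factor of the response to high salt, had 8.11 RPM in the cow oocyte, 568 RPM in the morula and 66.9 RPM in the blastocyst, and rose in pig too, to 64.3 RPM against 2.07 RPM in the oocyte. STK39, the kinase that activates SLC12A2, fell in both, with 33.7 and 1.13 RPM in the cow oocyte and blastocyst and 152 and 3.49 RPM in pig. The scaffold PDZK1 went opposite ways, with 2.43 RPM in the oocyte and 15.9 RPM in the blastocyst of cow, but 188 and 2.14 RPM in pig. ATF4, a factor of the amino acid response, had 16.6 RPM in the cow oocyte and 105 RPM in the blastocyst, and 11.8 and 113 RPM in pig, again a rise in each.

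Carriers that neighbour each other on a chromosome, less than 200000 bases apart, made 7 pairs in cow and 8 in pig. SLC17A1 and SLC17A3 fell together in both species, though cow SLC17A3 did not with a pseudocount of 5 RPM. In pig SLC45A3 and SLC26A9 fell together, both by 3.64 on the log2(RPM + 1) scale and both highest in the oocyte. Both members were highest in the morula for cow SLC26A4 and SLC26A3, with differences of 1.501 and 0.63, and for pig SLC39A9 and SLC10A1, with 0.44 and 1.19. The members of other pairs moved apart: cow SLC12A4 and SLC7A6 differed from oocyte to blastocyst by 3.96 and -2.51 on the log2(RPM + 1) scale, pig SLC12A1 and SLC24A5 by 4.602 and -3.36, pig SLC39A1 and SLC27A3 by 4.08 and -2.12, and pig SLC31A1 and SLC31A2 by 6.12 and -1.31. Cow SLC16A11 and SLC16A13, 322 bases apart, had 3.88 and -0.43. The pig SLC24A5 row overlaps MYEF2 on the opposite strand over 14.4% of its span, which went from 55.7 to 4.02 RPM.

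The remaining genes were selected in 1 species, 35 in cow and 45 in pig. For 21 of the cow ones the pig row stayed below 10 RPM, and for 40 of the pig ones the cow row did. The other 14 and 5 symbols, the latter SLC1A4, SLC4A1AP, SLC6A8, SLC7A5 and SLC15A2, were not analysed in the second species here. A gene selected in 1 species is thus not shown to be unexpressed in the other.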

How the data were processed

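Per the submitters' processing notes, reads were trimmed with Trim Galore 0.6.4 and mapped with HISAT2 2.1.0, and the builds named are UMD3.1 and Sscrofa11.1. The labels' protocols give RNA isolation with the PicoPure kit, amplification with Ovation RNA-Seq and 8 PCR cycles. The counting tool, its strand setting, the annotation and the handling of duplicate reads are not given in the sources used here. The deposited values are log2 RPM, in 1 table per species scaled on its own. Their unit was read from the values: at least 99.97% of them are whole multiples of 1 read (tolerance 0.02 read), and 0 reads are written as 0.9 of a read.

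Values were turned back into RPM and reads with Python 3.11.15, numpy 2.4.6, pandas 2.3.3 and scipy 1.17.1. Changes are later minus earlier log2(RPM + 1), which understates the change of low genes. Intervals are 95% Wilson for RPM and exact binomial for folds. A fold against 0 reads is a lower bound at the floor of 3 reads per library. Of repeated symbols the row with the highest mean was kept (SLC11A2 in cow). The calling steps were tested on simulated data, which is no replicate check of the calls made here.

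Genes named are, per species, the 4 with the largest range in each of 8 substrate groups, the 8 that rose and the 8 that fell most from oocyte to blastocyst, opposite and passing changes, the 3 on each side of the level, the SLC3 and SLC7A5 to SLC7A11 chains, rows that are no carriers, and partners that changed. Others named outside this rule were chosen after their values were seen, as relatives, or because they changed in both species or in none. The members and the lists were chosen with earlier results of these data known. Substrate groups follow the family number. Results of some named genes are not reported here, and these genes stay in the counts. Alternatives were other pseudocounts, filters, scalings, thresholds, a level of 20 RPM and summed rows.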

Additional observations from a re-analysis of the deposited data

Results flagged for a closer look

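Between the oocyte and the blastocyst the carriers SLC1A1, SLC39A8 and SLC9A9 moved one way in the cow libraries and the opposite way in the pig libraries, each past the threshold in both. The cow difference minus the pig difference, on the log2(RPM + 1) scale, was 8.93 for SLC1A1 (5.56 in cow and -3.37 in pig), 8.02 for SLC39A8 (3.64 and -4.38) and 5.71 for SLC9A9 (2.91 and -2.80). The difference between the species was not tested, since each stage had 1 library.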

How the results depend on the processing

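No paired analysis was possible because each stage of each species had 1 library, so no replicate could be left out either. The counts of changed carriers moved by over 1.5 times with the pseudocount or the threshold. With a pseudocount of 0.5 RPM, 3 cow and 11 pig carriers changed from the oocyte to the 2-4 cell embryo. With 5 RPM the cow counts over the 4 successive steps were 0, 20, 13 and 30, the pig counts 1, 1, 24 and 34, and 12 carriers changed the same way in both species from oocyte to blastocyst. With a threshold of 1 the cow counts were 7, 79, 66 and 77, the pig counts 34, 28, 79 and 94, and 43 carriers changed the same way. The pig counts up and down were then 12 and 22, 24 and 4, 41 and 38, and 45 and 49. All but the second of these had the opposite order at a threshold of 2. No share over all rows was computed for these other pseudocounts or this threshold, so the counts cannot be set beside all genes. Other filters, 3 other scalings, summed rows and a level of 20 RPM kept each count within 1.5 times.

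Scaling to reads outside the mitochondrial genome moved the median oocyte to blastocyst difference of all rows at 10 RPM or more by 0.39 in cow and 0.11 in pig, median scaling by -0.54 and -0.66, and quantile scaling by -0.03 and -0.23. No carrier's called change turned direction under these 3. Of the named oocyte to blastocyst changes, 35 in cow and 41 in pig, a pseudocount of 5 RPM ended 5 in each species, SLC7A7, SLC15A1, SLC17A3, SLC28A3 and SLC29A4 in cow and SLC1A1, SLC9A9, SLC13A4, SLC13A5 and SLC15A5 in pig. The scalings ended those of cow SLC7A7, SLC15A1 and SLC28A3 and of pig SLC13A4. Genes named outside the naming rule are not in these counts, and their calls under the other settings are not given. Some lie near the threshold, such as cow SLC9A8 at 2.29, SLC29A1 at 2.26 and SLC35A5 at -2.02. At these depths a level below the 3-read floor was not detectable.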
